A study of Mus musculus with 3 samples.

Results

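The genes for making and for clearing reactive oxygen were followed in the immune cells of the mouse pancreas after a yeast beta-glucan. The 8 genes, of 31053 in the count matrices, were named by their function. Of these, 4 encode subunits of the phagocyte NADPH oxidase (Cybb, Cyba, Ncf1 and Ncf4) and 4 encode antioxidant enzymes (Sod2, Prdx5, Prdx1 and Txnrd1). Single-cell RNA was sequenced from live CD45+ cells sorted from the pancreas of wild-type C57BL/6J mice aged 6 to 8 weeks. There were 3 libraries, 1 from mice given PBS, 1 from mice given WGP 3 days earlier (3-day WGP) and 1 from mice given WGP 7 days earlier (7-day WGP). WGP is a whole, particulate beta-glucan from yeast that phagocytes have to engulf, and it was given into the peritoneum. Both sexes were used in the study, and neither the number nor the sex of the mice in a library is given.

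The phagocyte oxidase is a membrane complex that moves electrons from NADPH to oxygen and so makes superoxide inside the phagosome. Cybb encodes its catalytic core, gp91phox (NOX2), and Cyba encodes p22phox, the partner that keeps that core stable. Ncf1 (p47phox) and Ncf4 (p40phox) encode cytosolic subunits that join the core on activation, together with a small GTPase, Rac1 or Rac2. Reactive oxygen elsewhere in the cell is handled by enzymes of several compartments. Sod2 is the superoxide dismutase of the mitochondrial matrix and turns superoxide into hydrogen peroxide. The peroxiredoxins Prdx1, mostly cytosolic, and Prdx5, found in mitochondria, peroxisomes and cytosol, reduce peroxides. Txnrd1, the cytosolic thioredoxin reductase, recharges thioredoxin, which in turn recharges peroxiredoxins.

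Cells were barcodes with at least 1000 unique molecular identifiers (UMIs, one per captured RNA molecule), or 300 for neutrophils, and at most 30% mitochondrial UMIs. The PBS library gave 5031 cells, the 3-day WGP library 4692 and the 7-day WGP library 4047, with medians of 5505, 5570.5 and 7796 UMIs. Libraries held between 48219246 and 56849043 UMIs in all and shared between 1 and 9 barcodes by pairs. Clusters were named from marker genes, so a class name here stands for cells like that class, and 4.39% to 9.54% of cells stayed unnamed. All 10 monocyte/macrophage markers and all 8 neutrophil markers were detected in their classes in each library. The sex of the cells differed between libraries: monocyte/macrophages with Xist and no chromosome Y UMI, and with the reverse, numbered 709 and 5 in PBS, 70 and 476 in 3-day WGP and 540 and 571 in 7-day WGP. Sex and treatment therefore cannot be told apart in that class at 3 days, and for the 8 genes in it values within Xist cells are given as well as the pooled ones. Classes within a library differed in sex as well. In PBS, B cells with Xist and with Y were 304 and 876 and plasma cells 86 and 148. Plasmacytoid DCs were 7 and 22, neutrophils 21 and 6 and conventional DC 1 68 and 32. An order of classes within a library can therefore carry a difference in sex, which was not tested.

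A level is the UMIs of a gene summed over the cells of a class in 1 library and scaled to the usual common total (CPM). Parentheses hold the 95% interval of the count, exact Poisson for a level, exact conditional binomial for a ratio and exact binomial for a share of cells, and cover counting error only. With 1 library a group there was no replicate and no test, and the 3-day and 7-day ratios share the PBS library. Reads come from transcript ends in this chemistry, and a level of 1 gene was not set against that of another. A run of 3 values goes from PBS through 3 days to 7 days.

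The sequence before a gene is where the factors that set its transcription bind, and the promoters of 4 of the 5 genes that were at least 2-fold higher in pooled monocyte/macrophages at 3 days are shown here. The other such gene, Prdx5, is not shown, and its window held none of the 6 motifs below. Within Xist cells Prdx5 was the only 1 of the 5 that was at least 2-fold higher at that time. RefSeq (build GRCm38.p6) gave 9 promoters for 7 of the 8 genes, each from 250 bases before a start site to 50 after it. Ncf4 had no entry. Both strands were searched for 6 motifs and matches are in capitals. They were the core of the antioxidant response element (TGACNNNGC, in 12.4% of 32851 promoters), the PU.1 core (GAGGAA, 28.3%), a STAT motif (TTCNNNGAA, 8.30%) and, by name, AP-1 (5.20%), NF-kB (4.51%) and ISRE (3.44%). The antioxidant response element is the letter pattern that Nrf2 binds, PU.1 is the lineage factor of myeloid cells, and ISRE is the pattern of interferon regulatory factors.
The Prdx1 promoter at chr4:116685349-116685648 (plus strand) held a PU.1 core 244 bases before the start, an AP-1 match at 237, an NF-kB match at 170, and an antioxidant response element core at 133 that overlaps a second AP-1 match at 131.
Prdx1: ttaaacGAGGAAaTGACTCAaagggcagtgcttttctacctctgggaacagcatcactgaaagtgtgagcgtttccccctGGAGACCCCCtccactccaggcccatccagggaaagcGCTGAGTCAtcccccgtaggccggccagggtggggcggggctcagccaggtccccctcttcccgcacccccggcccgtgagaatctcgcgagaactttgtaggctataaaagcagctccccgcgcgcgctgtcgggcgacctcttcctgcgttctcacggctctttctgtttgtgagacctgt
The Txnrd1 promoter at chr10:82858956-82859255 (plus strand), 1 of 3 for this gene, held a STAT match 230 bases before the start and an antioxidant response element core 92 bases before it. Of the others, the window that starts at 82833701 held PU.1 cores 169 and 84 bases before its start site and the window that starts at 82860091 a STAT match 73 bases before, and neither held the antioxidant response element core.
Txnrd1: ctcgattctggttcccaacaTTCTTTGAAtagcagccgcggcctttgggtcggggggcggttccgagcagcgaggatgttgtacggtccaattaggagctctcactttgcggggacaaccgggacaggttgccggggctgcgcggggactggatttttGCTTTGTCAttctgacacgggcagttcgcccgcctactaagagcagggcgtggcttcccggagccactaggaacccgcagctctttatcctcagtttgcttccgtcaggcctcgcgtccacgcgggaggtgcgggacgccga
The Sod2 promoter at chr17:13007589-13007888 (plus strand) held a PU.1 core 203, a STAT match 185 and an NF-kB match 83 bases before the start.
Sod2: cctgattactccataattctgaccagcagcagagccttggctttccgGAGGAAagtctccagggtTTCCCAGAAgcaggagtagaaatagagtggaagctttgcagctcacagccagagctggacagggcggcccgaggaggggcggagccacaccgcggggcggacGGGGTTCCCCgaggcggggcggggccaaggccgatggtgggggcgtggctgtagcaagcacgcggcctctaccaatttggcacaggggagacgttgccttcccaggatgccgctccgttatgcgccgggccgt
The Cybb promoter at chrX:9469275-9469574 (minus strand) held ISRE matches 168, 124 and 29 bases before the start and a PU.1 core 9 bases after it.
Cybb: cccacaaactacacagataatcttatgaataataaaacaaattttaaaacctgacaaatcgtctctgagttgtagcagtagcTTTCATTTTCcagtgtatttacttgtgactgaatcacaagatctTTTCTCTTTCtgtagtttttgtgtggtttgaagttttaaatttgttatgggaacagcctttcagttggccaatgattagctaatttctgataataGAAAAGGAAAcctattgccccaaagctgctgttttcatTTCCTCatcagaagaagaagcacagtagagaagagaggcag
Ncf1 held a STAT match 88 and an ISRE match 82 bases before its start, which overlap. The Cyba and Prdx5 windows held none of the 6 motifs. A match is a stretch of letters and not a measured binding site.

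The oxidase genes were examined first, across classes. Cybb (ENSMUSG00000015340, protein coding, chromosome X, 9435252 to 9487771, minus strand, GRCm38) was at 898 (877 to 918) CPM in PBS, 2623 (2593 to 2654) CPM in 3-day WGP and 2183 (2160.03 to 2205) CPM in 7-day WGP in monocyte/macrophages. In the neutrophil class it was at 1390.2 (1291 to 1495) CPM in PBS, 514 (472 to 558) CPM in 3-day WGP and 669 (604 to 739.6) CPM in 7-day WGP. Plasmacytoid DCs, the interferon-secreting dendritic cells, carried 1031, 1181 and 1105 CPM. So Cybb was highest in neutrophils in PBS, where plasmacytoid DCs and monocyte/macrophages overlapped in their intervals, and highest in monocyte/macrophages at both times after WGP. Dendritic cells split by type. Conventional DC 2 or migratory DCs held 448, 449.8 and 635 CPM, whereas conventional DC 1, the cross-presenting type, held 7.47, 17.7 and 17.3 CPM from 14, 33 and 33 UMIs. B cells were at 269, 305 and 349 CPM and plasma cells, which descend from them, at 151, 138 and 112 CPM. T cells, a class not known for this oxidase core, were at 14.1, 11.1 and 20.9 CPM. Conventional DC 1 overlapped the T cell level in every library, and NK cells (8.02, 6.95 and 8.63 CPM) lay at or below it.

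Cyba (ENSMUSG00000006519, chromosome 8, 122424776 to 122432930, minus strand) was the broadest of the oxidase genes. It was at 1273, 1888 and 2176 CPM in monocyte/macrophages and 1849, 1681 and 1533 CPM in neutrophils, the highest pair of classes in each library. T cells, with 499.5, 535 and 769 CPM, NK cells, with 818, 1034 and 1017 CPM, and conventional DC 1, with 761, 801 and 924 CPM, all carried it. p22phox also partners other NADPH oxidases, and the 8 immune classes below this pair with at least 20 cells in each library had between 399.8 CPM (plasma cells, 7-day WGP) and 1283 CPM (conventional DC 2 or migratory DCs, 7-day WGP).

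Ncf1 (ENSMUSG00000015950, chromosome 5, 134220053 to 134229625, minus strand) was highest in neutrophils in each library, at 547 (486 to 615) CPM in PBS, 687 (639 to 738) CPM in 3-day WGP and 711 (644 to 783) CPM in 7-day WGP. Monocyte/macrophages had 169.96, 293 and 233 CPM and plasmacytoid DCs had 314, 217 and 481 CPM. The neutrophil level was 3.22 (2.82 to 3.66) times that of monocyte/macrophages in PBS, 2.34 (2.16 to 2.54) times in 3-day WGP and 3.06 (2.75 to 3.39) times in 7-day WGP. Unlike Cybb, Ncf1 was well above the T cell level (7.07, 6.25 and 24.9 CPM) in conventional DC 1, at 73.7, 85.5 and 103 CPM, and B cells held a like level in every library, 119.99, 128 and 130.2 CPM. Plasma cells held less, 17.9, 12.9 and 3.86 CPM.

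Ncf4 (ENSMUSG00000071715, chromosome 15, 78244801 to 78262580, plus strand) was also highest in neutrophils, at 445 (390.01 to 507) CPM in PBS, 559 (515 to 605) CPM in 3-day WGP and 488 (433 to 548) CPM in 7-day WGP. The next classes were B cells, with 203, 227 and 188 CPM, conventional DC 1, with 191, 179 and 227 CPM, and monocyte/macrophages, with 139, 197 and 259.5 CPM. In PBS the B cell and conventional DC 1 intervals overlapped and both lay above the monocyte/macrophage interval. NK cells stood above T cells for this subunit, at 123, 130.5 and 115 CPM against 49.5, 61.9 and 80.2 CPM. The 4 subunits of the 1 enzyme were thus spread unlike one another: conventional DC 1 and NK cells had Cyba and Ncf4 with Cybb at about the T cell level or below it, and plasmacytoid DCs had Cybb and Ncf1 with 77.5, 99.7 and 59.1 CPM of Ncf4.

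**Figure D1:**
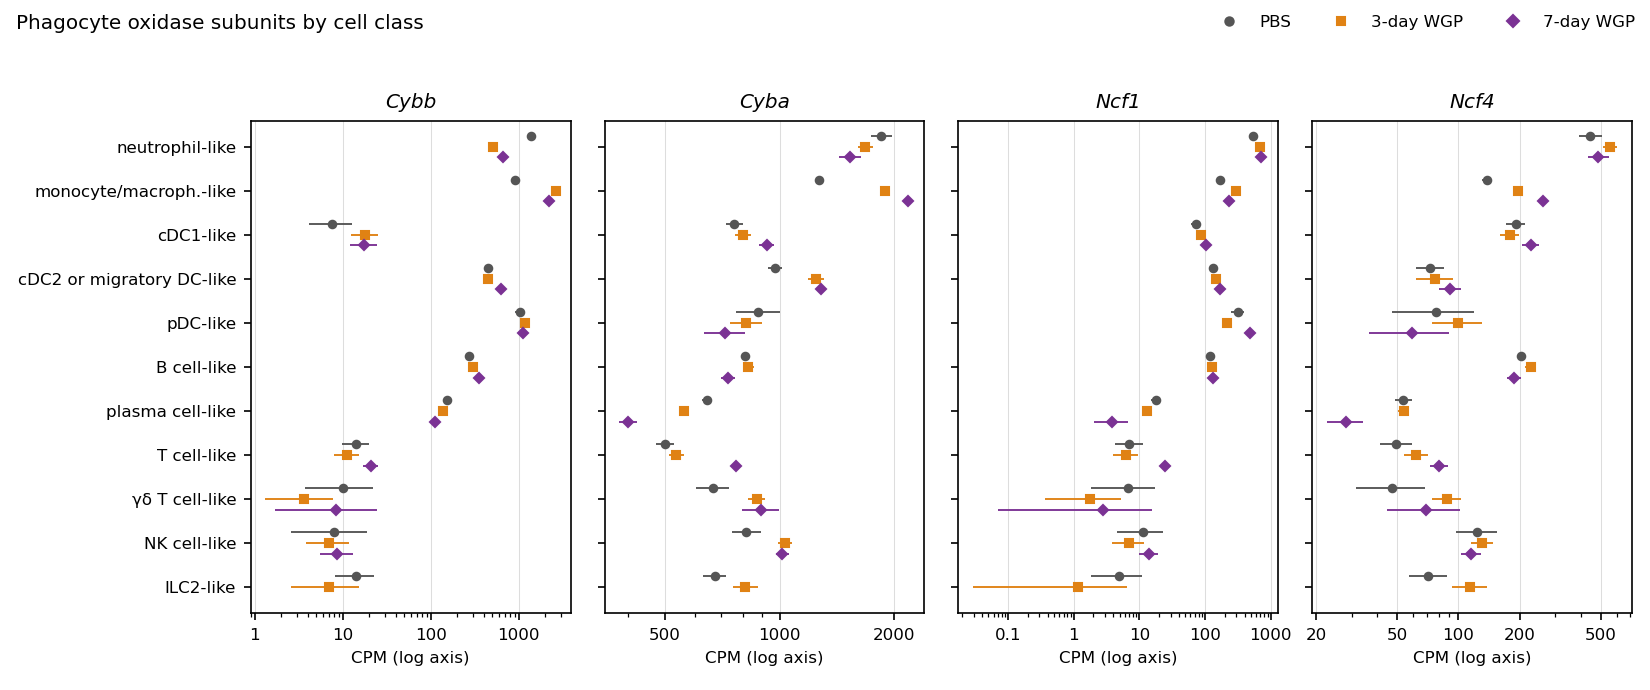
Levels of the 4 oxidase genes in each cell class and library, as CPM on a log axis, 1 panel a gene. Points are libraries and bars are 95% counting intervals. Cybb spans from about the T cell level (14.1, 11.1 and 20.9 CPM) to 2623 CPM in monocyte/macrophages at 3 days, while Cyba stays within a narrow band over all classes.

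The antioxidant genes, which most cells use, had another distribution. In PBS, Sod2 (ENSMUSG00000006818, chromosome 17, 13006846 to 13040063, plus strand) was at 129.98 (103 to 162) CPM in gamma-delta T cells, 97.4 (85.6 to 110.3) in T cells, 76.1 (70.2 to 82.4) in monocyte/macrophages and 42.2 (26.5 to 64.0) in neutrophils, the lowest immune class beside plasma cells, whose interval overlapped. After WGP the order turned over. Neutrophils were at 424 (386 to 465) CPM at 3 days and 809.6 (738 to 886) CPM at 7 days, and monocyte/macrophages were at 480.1 (467 to 493) and 770.4 (757 to 784) CPM, with the intervals of the classes overlapping at 7 days. T, B and NK cells kept near their PBS levels. T cells had 97.4, 81.8 and 87.0 CPM, B cells 66.5, 65.6 and 65.0 CPM, NK cells 103, 112 and 90.0 CPM and gamma-delta T cells 129.98, 118 and 108 CPM.

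Prdx5 (ENSMUSG00000024953, chromosome 19, 6906697 to 6910106, minus strand) was a neutrophil-high gene in every library, at 2172 (2047 to 2302) CPM in PBS, 2479 (2387 to 2575) CPM in 3-day WGP and 3079 (2938 to 3226) CPM in 7-day WGP. Monocyte/macrophages started well below, at 493 (477 to 508) CPM in PBS, and were at 2478 (2449 to 2508) CPM at 3 days and 2942 (2916 to 2968) CPM at 7 days. The neutrophil level was 4.41 (4.12 to 4.71) times theirs in PBS and 1.0004 (0.961 to 1.04) times theirs at 3 days. The classes that stood apart in PBS therefore overlapped after WGP. Lymphoid classes were low throughout, with 119, 139.8 and 157 CPM in T cells and 110.01, 119 and 116 CPM in B cells.

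Prdx1 (ENSMUSG00000028691, chromosome 4, 116685544 to 116700822, plus strand) was the reverse of Prdx5 in neutrophils. It was highest in monocyte/macrophages in each library, at 817 (797 to 837) CPM in PBS, 1754 (1729.5 to 1779) CPM in 3-day WGP and 1384 (1366 to 1402) CPM in 7-day WGP, and among immune classes second highest in conventional DC 1, at 451, 472 and 616 CPM. Neutrophils held 48.0 (31.1 to 70.9) CPM in PBS, the lowest immune class, then 296 (265 to 330.3) and 306 (263 to 355) CPM. T cells were at 341, 338 and 426 CPM and B cells at 292, 285 and 273 CPM.

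Txnrd1 (ENSMUSG00000020250, chromosome 10, 82833951 to 82897712, plus strand) followed the pattern of Sod2. In PBS gamma-delta T cells had 72.6 (52.5 to 97.8) CPM, T cells 45.2 (37.3 to 54.2) and monocyte/macrophages 34.3 (30.4 to 38.6), and each neighbour in the order of the 11 classes overlapped the next. After WGP the neutrophils led with 205 (179 to 234) and 282 (240.3 to 329) CPM and monocyte/macrophages came next with 105 (99.3 to 111) and 113 (108 to 118) CPM. B cells stayed at 27.4, 28.6 and 35.1 CPM.

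**Figure D2:**
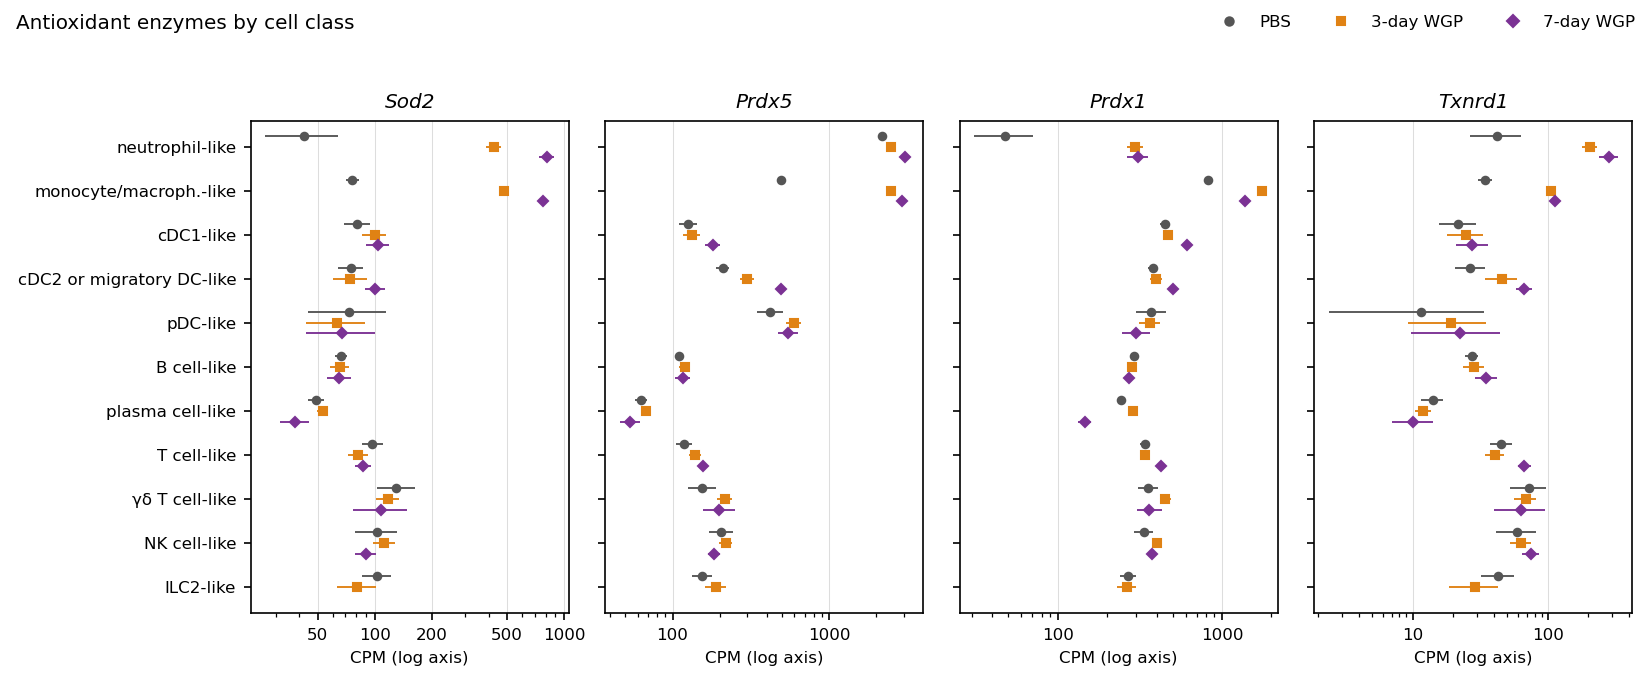
Levels of the 4 antioxidant genes in each cell class and library, as CPM on a log axis, 1 panel a gene, with 95% counting intervals as bars. The libraries lie together in B cells and part in monocyte/macrophages, where Sod2 goes from 76.1 CPM in PBS to 770.4 CPM at 7 days.

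Whether WGP was followed by other levels within a class was asked next, beginning with monocyte/macrophages (745, 715 and 1379 cells). Against PBS, Sod2 was higher by a factor of 6.31 (5.80 to 6.87) at 3 days and 10.1 (9.33 to 10.99) at 7 days. For Prdx5 the factors were 5.03 (4.87 to 5.20) at 3 days and 5.97 (5.78 to 6.17) at 7 days. Txnrd1 was higher by 3.06 (2.69 to 3.51) at 3 days and 3.28 (2.89 to 3.74) at 7 days. Prdx1 had factors of 2.15 (2.09 to 2.21) at 3 days and 1.69 (1.65 to 1.74) at 7 days, the smallest of the 4, and its 3-day factor within Xist cells was below 1, at 0.688 (0.632 to 0.748).

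Among the oxidase genes, Cybb had the greatest difference, with factors of 2.92 (2.85 to 3.00) at 3 days and 2.43 (2.37 to 2.49) at 7 days. The stabilizing partner Cyba had 1.48 (1.45 to 1.52) at 3 days and 1.71 (1.67 to 1.75) at 7 days. The cytosolic subunits were at 1.72 (1.62 to 1.84) at 3 days and 1.37 (1.29 to 1.46) at 7 days for Ncf1 and 1.42 (1.32 to 1.53) at 3 days and 1.87 (1.75 to 2.00) at 7 days for Ncf4. In the pooled class all 8 genes were thus above PBS at both times and by more than their counting error, the antioxidant genes Sod2 and Prdx5 by the most. Within Xist cells at 3 days this did not hold for Prdx1, Ncf4 and Txnrd1, whose values follow.

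These ratios were set against those of all genes. A gene was taken as different when it was at least 2-fold higher or lower after 10 CPM was added to both levels, among 7631 genes with a mean of at least 10 CPM. At 3 days 5 of the 8 genes were at least 2-fold higher (Cybb, Sod2, Prdx5, Prdx1 and Txnrd1), against 3.96% of all genes, and 0 were 2-fold lower, against 3.21%. Within Xist cells 1 of the 8, Prdx5, was at least 2-fold higher at that time. At 7 days 4 of the 8 were (Cybb, Sod2, Prdx5 and Txnrd1), against 4.56% of all genes, and 0 were 2-fold lower, against 5.49%. The 8 genes were chosen with earlier results of these data known, so these counts are a description. Counted from the highest ratio, Sod2 ranked 31 of 7631 at 3 days and 22 at 7 days, Prdx5 ranked 44 and 47, and Cybb ranked 121 and 245. The lowest ranks were those of Ncf4 at 3 days, 839, and Ncf1 at 7 days, 887. The median gene had a log2 ratio of -0.03 at 3 days and -0.11 at 7 days. Scaling by TMM factors (trimmed means over genes) in place of total UMIs moved the numbers of higher and lower genes from 302 and 245 to 362 and 208 at 3 days, and from 348 and 419 to 473 and 296 at 7 days. With it 7 of the 8 genes were at least 2-fold higher at 7 days, all but Ncf1.

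**Figure D3:**
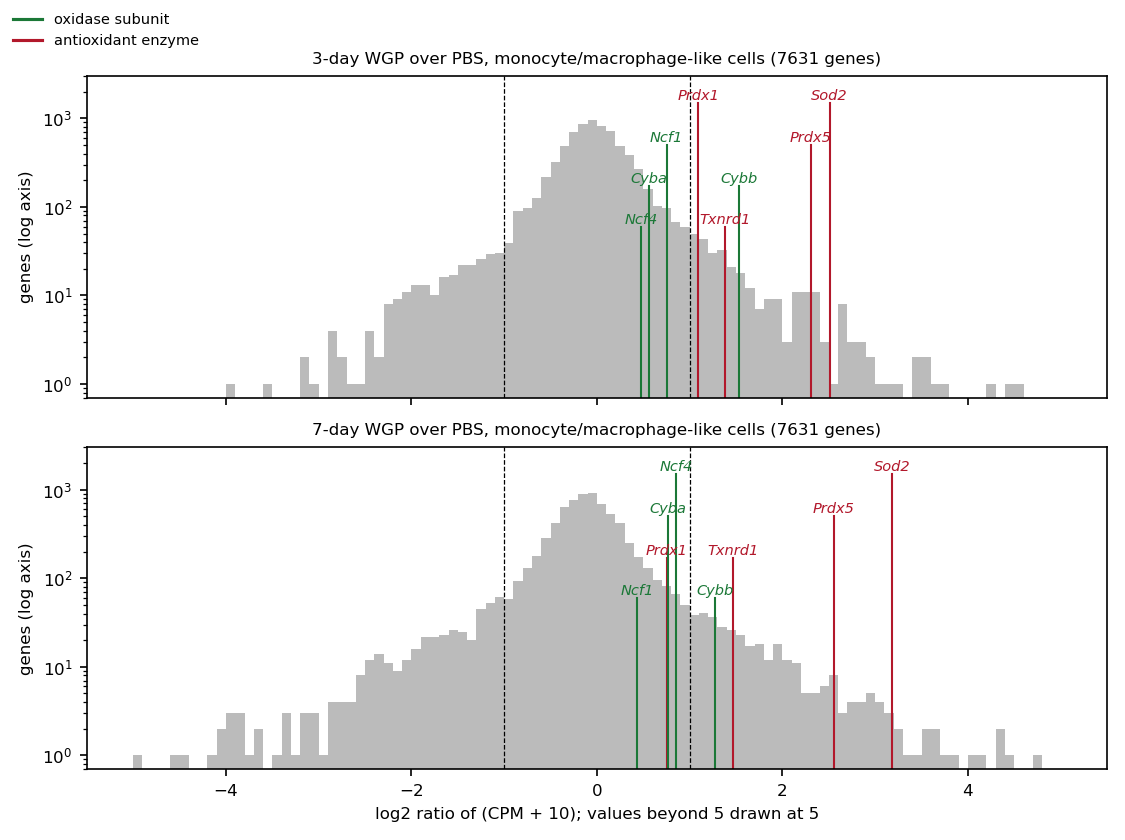
Distribution of log2 ratios to PBS over the 7631 genes tested in monocyte/macrophages, at 3 and 7 days, with the number of genes on a log axis, the 8 genes marked and dashed lines at 2-fold. Sod2, ranked 31 and 22, and Prdx5, ranked 44 and 47, sit far in the upper tail, and none of the 8 lies in the lower tail.

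The same direction was seen in the share of cells with a UMI, after every cell was thinned to 1000 UMIs. Sod2 was seen in 8.19% (6.32 to 10.4%), 30.9% (27.5 to 34.4%) and 40.5% (37.9 to 43.1%) of monocyte/macrophages, and without thinning in 45.6%, 80.4% and 85.4%. Prdx5 was seen in 32.2%, 71.9% and 84.2% (unthinned 87.8%, 94.97% and 99.6%). For Cybb the thinned shares were 57.0%, 81.8% and 79.7%, and 98.3%, 99.6% and 99.6% without thinning. T cells, for comparison, had Cybb in 0.586%, 0.668% and 2.12% thinned and 4.30%, 4.17% and 8.31% unthinned, at medians of 3665.5, 5226 and 6565.5 UMIs against 10245, 14242 and 10906 in monocyte/macrophages. Nearly every monocyte/macrophage with its full depth had Cybb in all 3 libraries, and the thinned shares show that it was a greater part of a cell's UMIs after WGP.

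The sex of the cells moved with these values at 3 days. Within Xist cells (709, 70 and 540), Prdx5 was at 488, 1131 and 2642 CPM, with factors of 2.32 (2.17 to 2.48) at 3 days and 5.42 (5.23 to 5.61) at 7 days. Sod2 was at 76.0, 136 and 596 CPM, with factors of 1.80 (1.49 to 2.16) and 7.84 (7.19 to 8.56). Cybb had 894, 1591 and 1863 CPM, with factors of 1.78 (1.69 to 1.88) and 2.08 (2.02 to 2.15). So in Xist cells Sod2, Prdx5 and Cybb were above PBS at both times, by less than in the pooled class at 3 days. The Xist and Y cells at 3 days also differed in macrophage state, as given below. The Xist and pooled factors therefore differ by more than sex. Prdx1, below PBS at 3 days, had a factor of 1.82 (1.77 to 1.88) at 7 days, and Txnrd1, with 1.204 (0.855 to 1.66), was within counting error of PBS at 3 days and at 2.93 (2.54 to 3.38) at 7 days. The other oxidase subunits had factors of 1.08 (1.02 to 1.14) at 3 days and 1.69 (1.65 to 1.74) at 7 days for Cyba, and 1.25 (1.08 to 1.44) and 1.31 (1.22 to 1.41) for Ncf1. Ncf4 was within counting error of PBS at 3 days, at 1.005 (0.839 to 1.196), and at 1.84 (1.70 to 1.99) at 7 days. Cells with chromosome Y UMIs had 530.4 CPM of Sod2 and 1868 CPM of Prdx1 at 3 days, and the PBS library held 5 such cells, too few for a ratio.

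Macrophages differ by state, and different states made up most of the class in each library. A second clustering, which left the 8 genes out, gave 4 named states. Resident-like macrophages (led by Fcrls, Mgl2 and Mrc1) were 562, 86 and 33 of 745, 715 and 1379 cells, Arg1-like macrophages (Arg1, Saa3 and Cd5l) 7, 380 and 220, inflammatory-like macrophages (Hbb-bs, a globin gene of red cells, Ly6i and Cxcl9) 20, 46 and 684, and monocyte-like cells (led by Chil3 and Vcan) 88, 125 and 305. The values of the class at 3 and 7 days therefore rest on other states than those of PBS. The states were themselves mixed. A finer sub-clustering (resolution 0.8) gave Ly6C-high monocyte-like cells (led by Vcan and Ms4a4c; 20, 97 and 235 cells) and Ly6C-low monocyte-like cells (led by Chil3, Ace and Cytip), which numbered 68, 28 and 69. It also gave large peritoneal-like macrophages (led by Cd5l, Prg4 and Alox15), which numbered 5, 250 and 102, and an Arg1-like cluster led by Gpnmb, Fabp5 and Spp1 with 2, 128 and 119. At that resolution an inflammatory-like cluster led by Hbb-bs, Cxcl9 and Hbb-bt held 3, 11 and 495 cells. An unnamed cluster led by H2-Eb1 held 17, 35 and 188. A ratio within a state can therefore carry a change in its make-up. By sex, the 3-day Arg1-like cells were 16 Xist and 284 Y cells. The inflammatory-like cells were 20 Xist and 0 Y cells in PBS and 246 and 304 at 7 days.

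Sod2 was lowest in resident-like cells, at 57.5 (51.7 to 63.7) CPM in PBS, 80.6 (62.3 to 103) CPM in 3-day WGP and 97.8 (66.9 to 138) CPM in 7-day WGP. In monocyte-like cells it was at 117 CPM in PBS, 181 (161 to 203) CPM in 3-day WGP and 510.1 (485 to 536) CPM in 7-day WGP. In inflammatory-like cells it reached the highest value, at 183 (133 to 245) CPM in PBS, 596 (534 to 664) CPM in 3-day WGP and 1101 (1078 to 1125) CPM in 7-day WGP. The state levels parted by 7 days, when the inflammatory-like level was 11.3 (7.97 to 16.5) times the resident-like and 2.20 (2.09 to 2.32) times the Arg1-like level. Within a state, the ratios to PBS were 1.40 (1.06 to 1.83) at 3 days and 1.70 (1.15 to 2.45) at 7 days in resident-like, 1.55 (1.23 to 1.97) at 3 days and 4.35 (3.54 to 5.40) at 7 days in monocyte-like and 3.26 (2.39 to 4.56) at 3 days and 6.02 (4.50 to 8.26) at 7 days in inflammatory-like cells. The inflammatory-like ratios, here and for the genes below, rest on 20 PBS cells. The finer inflammatory-like cluster held 3 cells in PBS, so no ratio to PBS was taken in it. At the finer resolution the Ly6C-high cells were already at 170.1 (116 to 241) CPM in PBS, with ratios of 1.16 (0.797 to 1.74) at 3 days and 3.51 (2.46 to 5.19) at 7 days, and the Ly6C-low cells had 1.21 (0.806 to 1.80) at 3 days and 1.87 (1.38 to 2.56) at 7 days, so that neither differed from PBS beyond counting error at 3 days. Arg1-like cells had 628 (609.8 to 647) CPM at 3 days and 499.5 (476 to 524) at 7 days, a ratio of 0.795 (0.752 to 0.841) between these times. The mix of large peritoneal-like and Gpnmb-led cells in this state differed between them.

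Prdx5 was also lowest in resident-like and highest in inflammatory-like cells at 7 days. Resident-like cells had 314, 553 and 648 CPM, with ratios of 1.76 (1.59 to 1.95) at 3 days and 2.07 (1.78 to 2.38) at 7 days. Monocyte-like cells were already at 1391 (1312 to 1474) CPM in PBS and had 1723 and 2180.02 CPM later. Inflammatory-like cells had 877 (764 to 1003) CPM in PBS, 2699 (2565 to 2838) CPM in 3-day WGP and 3833 (3790.04 to 3876) CPM in 7-day WGP. Arg1-like cells had 2934 (2893 to 2974) CPM at 3 days and 1924 (1879 to 1971) CPM at 7 days, a ratio of 0.656 (0.638 to 0.674) between these times. This ratio too spans the change in the make-up of the state. Prdx5 was thus high in monocyte-like cells without WGP, and its ratio there was 1.57 (1.47 to 1.67) at 7 days against 4.37 (3.82 to 5.02) in inflammatory-like cells.

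Prdx1 marked another state. In Arg1-like cells it was at 2434 (2397 to 2471) CPM at 3 days and 2675 (2621 to 2729.6) CPM at 7 days, 2.02 (1.97 to 2.08) times the inflammatory-like level at 7 days. The 7-day over 3-day ratio was 1.10 (1.07 to 1.13) in the state. At the finer resolution it was 0.815 (0.780 to 0.852) in the large peritoneal-like cells, at 2030.2 and 1655 CPM, and 1.05 (1.02 to 1.09) in the Gpnmb-led cells, at 3341 and 3507 CPM. In the other states it was at 876, 729 and 929 CPM (resident-like), 559, 559 and 621 CPM (monocyte-like) and 544, 642 and 1323 CPM (inflammatory-like). Its ratios to PBS were 0.832 (0.763 to 0.905) at 3 days and 1.06 (0.942 to 1.19) at 7 days in resident-like cells and 0.9995 (0.893 to 1.12) at 3 days and 1.11 (1.002 to 1.23) at 7 days in monocyte-like cells. Sod2 and Prdx5 were therefore greatest in inflammatory-like cells at 7 days, and Prdx1 in Arg1-like cells.

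Txnrd1 in resident-like cells was level over the libraries, at 35.1, 33.0 and 33.6 CPM. In monocyte-like cells it was at 29.0, 38.3 and 79.5 CPM and in inflammatory-like cells at 52.8, 79.6 and 137 CPM, with 7-day ratios of 2.74 (1.80 to 4.36) and 2.60 (1.51 to 4.90). Arg1-like cells had 137 (129 to 146) and 121 (110.1 to 133) CPM at 3 and 7 days.

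Of the oxidase genes, Cybb was highest in Arg1-like cells, at 3316 (3273 to 3359) CPM at 3 days and 2909.8 (2854 to 2967) CPM at 7 days, the latter 1.28 (1.24 to 1.31) times the inflammatory-like level. Inflammatory-like cells were at 1166, 1894 and 2281 CPM, monocyte-like cells at 1476, 1578 and 1617 CPM and resident-like cells at 749, 893 and 1098 CPM. The monocyte-like ratios of 1.07 (0.998 to 1.15) at 3 days and 1.10 (1.03 to 1.17) at 7 days were nearer to 1 than those of the class. Ncf4 had another order, 339.6 (319 to 361) CPM in monocyte-like, 277 (265 to 288) in inflammatory-like, 193 (148 to 246) in resident-like and 139 (127 to 152) in Arg1-like cells at 7 days. Ncf1 at that time was 307 (289 to 326) CPM in Arg1-like, 219.9 (209.7 to 230.5) in inflammatory-like and 159 (145 to 173) in monocyte-like cells. Resident-like cells, 33 at that time, had 242 CPM of Ncf1. Core and adaptor subunits thus did not share 1 order over the states.

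**Figure D4:**
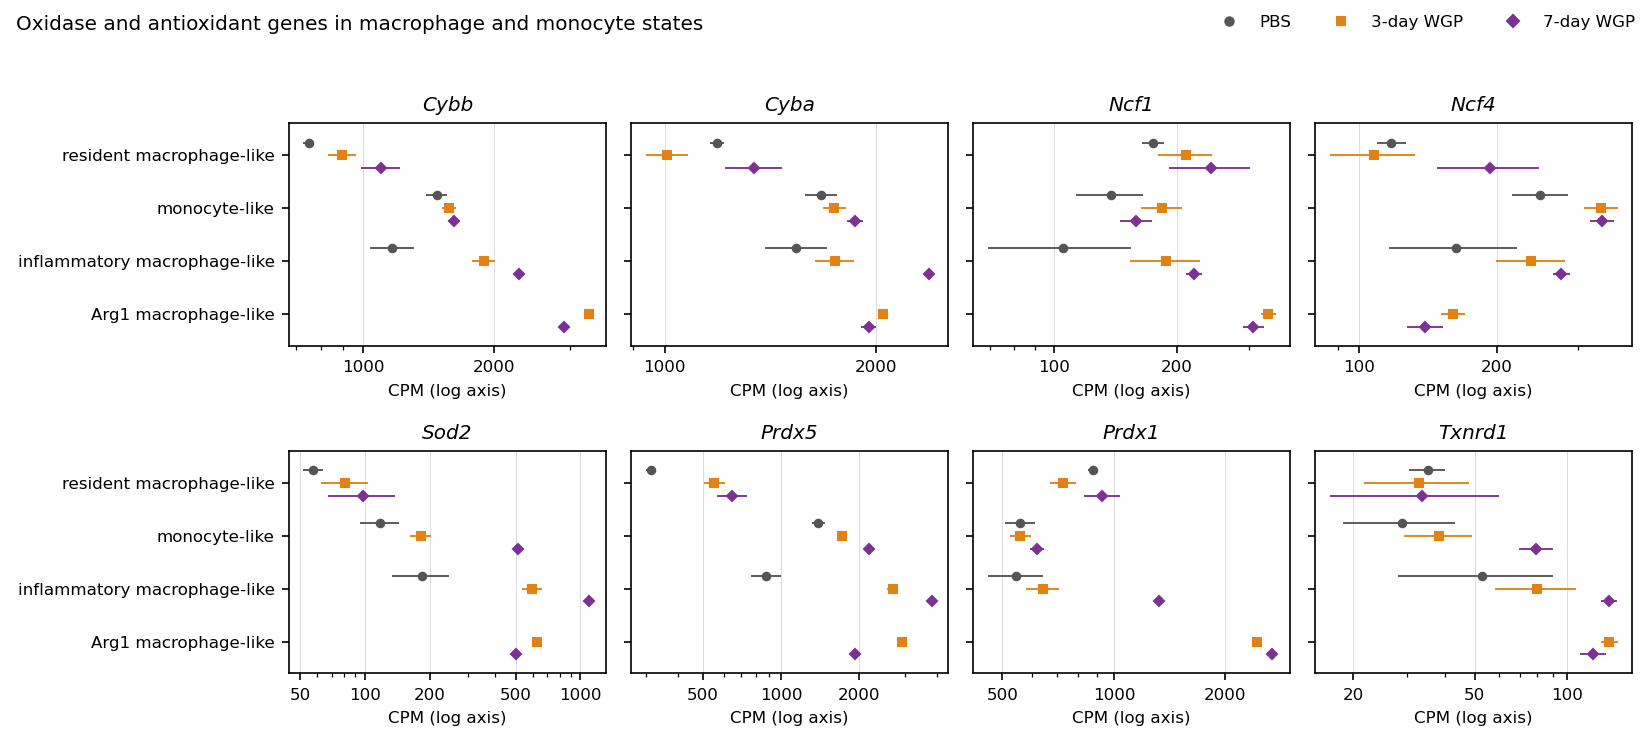
Levels of the 8 genes in the 4 named macrophage states by library, as CPM on a log axis with 95% counting intervals as bars, leaving out the 7 Arg1-like cells of PBS. Sod2 and Prdx5 top out in inflammatory-like cells at 7 days (1101 and 3833 CPM), Cybb and Prdx1 in Arg1-like cells (3316 CPM at 3 days and 2675 CPM at 7 days).

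Neutrophils, the cells best known for an oxidative burst, were 84, 230 and 198 cells. Sod2 had factors of 10.0 (6.55 to 16.2) at 3 days and 19.2 (12.5 to 30.9) at 7 days over PBS, Prdx1 6.17 (4.10 to 9.68) at 3 days and 6.38 (4.18 to 10.1) at 7 days and Txnrd1 4.85 (3.12 to 7.89) at 3 days and 6.67 (4.26 to 10.9) at 7 days. Cybb was lower, with factors of 0.370 (0.330 to 0.413) at 3 days and 0.482 (0.425 to 0.546) at 7 days. The other 4 genes were within 1.5-fold of PBS at both times: Cyba at 0.909 at 3 days and 0.829 at 7 days, Ncf1 at 1.26 at 3 days and 1.30 at 7 days, Ncf4 at 1.25 at 3 days and 1.09 at 7 days and Prdx5 at 1.14 at 3 days and 1.42 at 7 days. Cells with Xist and with chromosome Y UMIs numbered 21 and 6 in PBS, 10 and 91 in 3-day WGP and 20 and 45 in 7-day WGP, so sex and treatment cannot be told apart at 3 days. Within Xist cells Sod2 was at 48.6 CPM in PBS, 31.2 at 3 days (4 UMIs) and 746 at 7 days, and Txnrd1 at 41.1, 46.8 (6 UMIs) and 229.6 CPM. Y cells at 3 days had 449 CPM of Sod2 and 234 CPM of Txnrd1. The 7-day factors within Xist cells were 15.4 (8.39 to 30.4) for Sod2, 5.80 (2.45 to 14.8) for Prdx1, 5.59 (2.55 to 12.9) for Txnrd1 and 0.668 (0.528 to 0.837) for Cybb. By the 2-fold rule, 3 of the 8 genes were higher at 3 days against 18.0% of 6126 genes, and 1 was lower against 4.82%. At 7 days 3 were higher against 15.4%, and 1 was lower against 4.57%. The median gene had a log2 ratio of 0.36 at 3 days and 0.23 at 7 days, so the whole class leaned upward. Neutrophil markers summed to 299220, 107763 and 116148 CPM. TMM scaling moved the numbers of higher and lower genes from 1102 and 295 to 617 and 525 at 3 days, and from 944 and 280 to 700 and 478 at 7 days.

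The neutrophil class held a pair of clusters in unlike shares, and Cybb differed between them. Cells led by Ngp, Camp and Lcn2, the granule genes of young neutrophils, were 33, 13 and 6, and cells led by Hdc, G0s2 and Cxcl2 were 51, 217 and 192. The Ngp-led cells had 1814, 1149.5 and 1569.8 CPM of Cybb and 35.9, 47.7 and 44.1 CPM of Sod2. In the Hdc-led cells Cybb was at 123 (70.1 to 199) CPM in PBS, 342 (304 to 384) CPM in 3-day WGP and 449.8 (391 to 515) CPM in 7-day WGP, from 16, 292 and 209 UMIs. These UMIs lay in 9.80%, 33.2% and 28.6% of the cells, without thinning. Within Hdc-led cells the Cybb ratio was therefore above PBS, 2.79 (1.69 to 4.94) at 3 days and 3.67 (2.21 to 6.53) at 7 days, the reverse of the whole class.

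Sod2 in Hdc-led cells was at 61.3 (26.5 to 121) CPM in PBS, 526 (478 to 577) CPM in 3-day WGP and 996 (908 to 1091) CPM in 7-day WGP, with ratios of 8.58 (4.32 to 19.99) at 3 days and 16.2 (8.18 to 37.8) at 7 days. Its UMIs there were 8, 449 and 463, so the PBS value is thin. Txnrd1 was at 46.0, 251 and 342 CPM from 6, 214 and 159 UMIs, with ratios of 5.45 (2.46 to 15.0) at 3 days and 7.44 (3.34 to 20.6) at 7 days. Prdx5 was at 1549, 2669 and 3335 CPM, with ratios of 1.72 (1.49 to 2.00) at 3 days and 2.15 (1.86 to 2.51) at 7 days. Prdx1 was at 76.7, 354 and 355 CPM, and its PBS value came from 10 UMIs in 3.92% of 51 cells. By sex, the Xist cells of this cluster had 32.8 and 43.1 CPM of Sod2 in PBS and at 3 days, from 1 UMI each, and 899.8 CPM at 7 days, and the Y cells had 513 CPM at 3 days. The cytosolic oxidase subunits had ratios of 1.47 (1.14 to 1.92) at 3 days and 1.59 (1.22 to 2.10) at 7 days for Ncf1 and 2.27 (1.60 to 3.31) at 3 days and 1.78 (1.24 to 2.64) at 7 days for Ncf4, and Cyba of 1.63 (1.36 to 1.96) at 3 days and 1.36 (1.13 to 1.66) at 7 days.

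In the Hdc-led cells 5 of the 8 genes were at least 2-fold higher at 3 days (Cybb, Ncf4, Sod2, Prdx1 and Txnrd1) against 17.4% of 5929 genes, and 0 were lower against 6.59%. At 7 days 5 were higher (Cybb, Sod2, Prdx5, Prdx1 and Txnrd1) against 15.1%, and 0 were lower against 7.79%. Of 6 further oxidase genes that passed the filter on low values, 0 were higher and 1 was lower at each time. The shares of all genes are those just given. The monocyte/macrophage markers summed to 3174, 2996 and 4306 CPM in these cells. Of them, Csf1r was at 30.7, 146 and 125 CPM in the whole neutrophil class, from 16, 158 and 72 UMIs. The part of monocyte/macrophage RNA in the result of the Hdc-led cells was not tested. Cells with over 3 times the median UMIs, as doublets may have, were 0, 5 and 2, and without them Cybb was at 123, 319.7 and 437 CPM. The Xist and Y cells were 9 and 1, 6 and 88, and 19 and 41, so sex and treatment cannot be told apart here either.

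**Figure D5:**
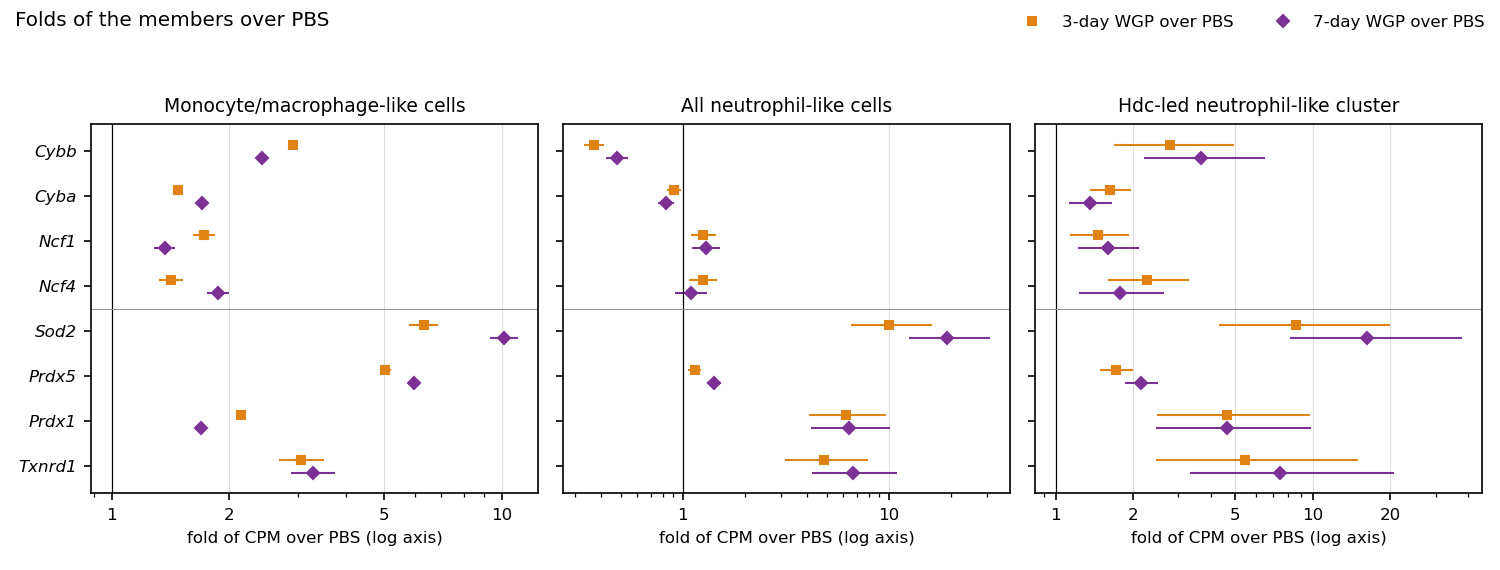
Fold of CPM over PBS for each of the 8 genes, on a log axis, at 3 and 7 days, in monocyte/macrophage-like cells, all neutrophil-like cells and the Hdc-led neutrophils, 1 panel each, with 95% counting intervals as bars. Cybb lies below 1 in all neutrophils (0.370 and 0.482) and above 1 in the Hdc-led cluster (2.79 and 3.67).

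Neutrophils and monocyte/macrophages were also set side by side. In Hdc-led neutrophils Cybb was 0.137 (0.0781 to 0.222) times the monocyte/macrophage level in PBS, 0.130 (0.116 to 0.146) times in 3-day WGP and 0.206 (0.179 to 0.236) times in 7-day WGP. Txnrd1 went the other way, at 1.34 (0.487 to 2.95), 2.38 (2.05 to 2.76) and 3.04 (2.57 to 3.57) times. Prdx1 was far lower in these neutrophils in each library, at 0.0939 (0.0450 to 0.173), 0.202 (0.179 to 0.226) and 0.257 (0.219 to 0.299) times. Hdc-led neutrophils had 506, 743 and 807 CPM of Ncf1, against 169.96, 293 and 233 CPM in monocyte/macrophages. For Ncf4 the levels were 261, 592 and 465 CPM against 139, 197 and 259.5 CPM. These neutrophils thus had more Ncf1 and Ncf4 in each library, PBS included, and more Txnrd1 after WGP. The monocyte/macrophages had more Cybb and Prdx1 in each library.

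Among dendritic cells the conventional DC 2 or migratory class (170, 116 and 257 cells) had the greatest 7-day ratios of Prdx5 and Txnrd1. Its mix differed between libraries: a clustering resolution of 1.2 gave 165, 72 and 215 conventional DC 2-like and 17, 47 and 57 migratory DC-like cells before doublets were removed. There Prdx5 was at 209 (190.2 to 228) CPM in PBS, 298 (269 to 329.8) CPM in 3-day WGP and 489.8 (465 to 516) CPM in 7-day WGP, a factor of 2.35 (2.11 to 2.61) at 7 days, and Txnrd1 at 26.8, 45.5 and 67.1 CPM, a factor of 2.50 (1.87 to 3.39). Within Xist cells these 7-day log2 ratios were 0.90 and 0.73, against 1.19 and 1.06 in the class. Cybb had a factor of 1.42 (1.31 to 1.53) and Sod2 of 1.35 (1.11 to 1.63) at 7 days. In conventional DC 1 Prdx5 was at 126, 133 and 181 CPM and Sod2 at 81.1, 100.01 and 104 CPM. The Xist and Y cells of conventional DC 1 were 68 and 32, 4 and 105, and 23 and 54. Its ratios to PBS can therefore carry a difference in sex. Plasmacytoid DCs (41, 75 and 52 cells) had 73.6, 63.3 and 67.5 CPM of Sod2 and 422, 596 and 548 CPM of Prdx5. The 7-day ratios of Prdx5 were 1.44 (1.21 to 1.70) and 1.30 (1.02 to 1.66) in these classes.

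In B cells (1891, 783 and 491 cells) the 8 genes had factors between 0.905 and 1.30 at the 2 times, the highest being that of Cybb at 7 days. Over T, gamma-delta T and NK cells the antioxidant genes had factors between 0.829 (Sod2, gamma-delta T cells, 7 days) and 1.49 (Txnrd1, T cells, 7 days). T cells had 3.52 (2.14 to 6.14) for Ncf1 at 7 days, from 18 UMIs in PBS and 125 at 7 days. The source of these UMIs was not tested. Cybb in T cells had 36, 39 and 105 UMIs, where free RNA alone would give 6.53, 34.8 and 33.5. Plasma cells had 0.216 (0.112 to 0.381) for Ncf1 at 7 days, from 13 UMIs at that time. ILC2 were 10 cells at 7 days and gave no ratio there.

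Free RNA, taken from barcodes with at most 100 UMIs, carried all 8 genes. Cybb in it was at 233, 551 and 708 CPM, Sod2 at 56.3, 198 and 351 CPM, Prdx5 at 197, 937 and 1149 CPM and Prdx1 at 337, 883 and 1028 CPM. It was estimated at 1.10%, 1.79% and 0.942% of the UMIs of cells. Free RNA levels were therefore higher after WGP for each of these genes. With that share taken off, 166 of 168 ratios of the 8 genes stayed in their counting interval or shifted by no more than counting error.

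The other genes of both systems were read from lists. Of 12 further oxidase genes 6 passed the filter on low values in monocyte/macrophages, and Nox1, Nox4, Noxo1, Noxa1, Duox1 and Duox2 did not. At 3 days 1 was at least 2-fold higher and 0 lower, against 3.96% and 3.21% of all genes, and at 7 days 0 were either. The 1 was Hvcn1, the proton channel that offsets the charge the oxidase moves, at 29.5, 75.9 and 51.2 CPM, a factor of 2.57 (2.22 to 2.98) at 3 days. The GTPase Rac2 was at 303, 321 and 329.7 CPM. The median log2 ratios of the list were 0.10 and 0.13, against -0.03 and -0.11 over all genes. Rac2 thus differed little in the class in which Cybb was over 2-fold higher.

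Of 28 further antioxidant genes 25 passed, all but Sod3, Txnrd3 and Nqo1. At 3 days 6 were higher (Prdx6, Txn1, Gpx1, Gsr, Slc7a11 and Hmox1), against 3.96% of all genes, 2 lower, against 3.21%, and 17 neither. At 7 days 5 were higher (Prdx6, Txn1, Gsr, Slc7a11 and Mgst1), against 4.56%, 2 lower, against 5.49%, and 18 neither. The median log2 ratios of the list were 0.37 and 0.27. These list values are of the pooled class, in which sex and treatment cannot be told apart at 3 days. Txn1, the thioredoxin that Txnrd1 recharges, was at 351, 1353 and 1279 CPM, with factors of 3.86 (3.71 to 4.02) and 3.65 (3.51 to 3.79). Gsr, the glutathione reductase, was at 66.4, 158 and 189 CPM, and Prdx6 at 65.6, 215 and 209.8 CPM. Slc7a11, the cystine importer for glutathione synthesis, was at 1.12, 60.6 and 119 CPM from 9 UMIs in PBS, with factors of 54.3 (28.4 to 119) and 106 (56.0 to 233). The 2 lower genes at both times were Prdx4, the peroxiredoxin of the endoplasmic reticulum, at 126, 48.5 and 54.0 CPM, and Txnip, the inhibitor of thioredoxin, at 605, 280.3 and 207 CPM. In the pooled class thioredoxin, its reductase and the glutathione reductase were thus higher, and the thioredoxin inhibitor lower.

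Among the Hdc-led neutrophils, of 22 further antioxidant genes that passed the filter, 5 were higher at 3 days (Gclc, Gclm, Gstm1, Hmox1 and Nqo1) and 2 lower (Glrx and Mgst1), and at 7 days 3 were higher (Gclm, Gstm1 and Nqo1) and 0 lower. Over all genes of that cluster 17.4% and 15.1% were higher, so these counts lie near the background and are no result about the list. Gclc and Gclm are the subunits of the enzyme that starts glutathione synthesis, and Nqo1 is a quinone reductase. In the whole neutrophil class 8 and 7 of 22 were higher, against 18.0% and 15.4% of genes, and 2 were lower at each time, against 4.82% and 4.57%.

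Genes with like levels over the classes were looked up by Pearson correlation of log2 levels over 36 points, each a class with at least 50 cells in 1 library, so that points share libraries and depth. Cybb was most like Sirpa (r = 0.91) and Themis2 (0.89). Ncf1 was most like Themis2 (0.95), Nfam1 (0.95) and Csf2rb (0.93). Sod2 was most like Cstb (0.90), Txnrd1 (0.90) and Tpi1 (0.87), and Prdx5 most like Atp6v1e1 (0.96), Fbxl5 (0.95) and Alas1 (0.94). Prdx1 was most like Canx (0.95), Akr1a1 (0.94) and Ndufc1 (0.93), and Txnrd1 most like Tbk1 (0.92), Cflar (0.91) and 2810474O19Rik (0.91). Cyba was most like Arpc1b (0.95), Ssu72 (0.95) and Gng5 (0.95), and Ncf4 most like AB124611 (0.89), Gripap1 (0.88) and Bid (0.87). Without the 3 points of erythroid cells these were between 0.70 and 0.96. Of pairs within the 8, Cybb with Ncf1 (0.84) and Sod2 with Txnrd1 (0.84) were the most alike outside erythroid cells, and Cybb with Prdx1 (0.087) was among the least.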

How the data were processed

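Live CD45+ pancreas cells were profiled in 3 libraries, grouped by the sample labels, with 10x 3' v3.1 chemistry. The authors counted reads with Cell Ranger 3.1.0 on mm10 and deposited raw counts, which are UMIs of a gene in a barcode and were not normalized. The number of deposited columns left unused was 0. Barcodes of at least 1000 UMIs (300 for neutrophils) and at most 30% mitochondrial UMIs were kept, in place of the authors' calling of cells. The automatic Scrublet threshold (scanpy 1.11.5) marked 0, 1 and 1 cells, so the highest scores were removed up to 0.8% per 1000 cells (220, 190 and 139). Cells were clustered with Seurat 5.3.0 and sctransform 0.4.2 (3000 variable genes, 30 components, resolution 0.8, and 0.4 within monocyte/macrophages), leaving out the 8 genes, the gene lists, Xist and chromosome Y genes. Clusters were named from fixed markers. Values are sums of raw counts per class. No replicate existed and no test was run. Genes named by rule are the 8, list genes past 2-fold in 1 direction at both times in monocyte/macrophages, and up to 3 genes most like each of the 8, without items not reported here. Other list genes named (such as Hvcn1, Rac2 and the neutrophil genes) were chosen after their values were seen. The members and lists were chosen with earlier results of these data known. TMM factors came from edgeR 4.0.16. Code was tested on simulated data.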

Additional observations from a re-analysis of the deposited data

Results flagged for a closer look

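A gene was picked out where it was at least 2-fold higher than PBS in 1 immune class and at least 2-fold lower in another at the same time, on the log2 scale with 10 CPM added. Cybb met this at 3 days, with 1.54 in monocyte/macrophages and -1.42 in neutrophils, and at 7 days, with 1.27 and -1.04. Within the Hdc-led neutrophils alone the values were 1.41 and 1.79, so the opposite sign was not present there. Ncf1 met it at 7 days, with 1.03 in T cells and -1.01 in plasma cells, where the UMIs were 18 in PBS and 125 at 7 days in T cells and 144 and 13 in plasma cells. With 1 library a group the difference between classes was not tested in any of these cases.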

How the results depend on the processing

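No paired analysis was possible because each group is 1 library, and for the same reason no replicate could be left out. In monocyte/macrophages at 7 days Cybb, Sod2, Prdx5 and Txnrd1 stayed at least 2-fold above PBS under 11 of 11 alternatives. At 3 days only the limit to Xist cells changed this: Cybb (log2 0.82), Sod2 (0.77) and Txnrd1 (0.21) lost it, Prdx1 turned to -0.53, and Prdx5 kept it at 1.197. In neutrophils Sod2, Prdx1 and Txnrd1 kept it under the alternatives run, 11 at 3 days and 12 at 7 days. The limit to Xist cells was not run in neutrophils at 3 days, where 10 such cells had 31.2 CPM of Sod2 and 46.8 CPM of Txnrd1, against 48.6 and 41.1 CPM in PBS. Cybb in neutrophils reversed to 1.41 and 1.79 in the Hdc-led cluster alone (chosen after seeing the data), where 5 members were higher and 0 lower at each time and 462 genes were lower at 7 days. At 7 days it was also short of 2-fold with at most 10% mitochondrial UMIs (-0.99), in Xist cells (-0.58) and as a mean over cells (-0.74). Xist cells gave 186 higher and 109 lower genes with 1 member higher in monocyte/macrophages at 3 days, and 1963 higher and 637 lower genes with 0 members lower in neutrophils at 7 days. With 1 CPM added, lower genes were 390 and 660 in monocyte/macrophages and 460 and 533 in neutrophils, where 1433 were higher at 7 days. TMM factors gave 7 members higher in monocyte/macrophages at 7 days, and in neutrophils 617 higher and 525 lower genes at 3 days and 478 lower at 7 days. The causes were not tested. Over all classes, a ratio of the 8 genes counted as moved when outside its counting interval and shifted by more than counting error. The ratios held 10 added CPM and the intervals did not. With at least 2000 UMIs a cell (600 for neutrophils) 0 moved, and with free RNA subtracted 2 did. With no doublets removed 10 moved, at a clustering resolution of 1.2 12, after log-normalization 13 and as a mean over cells 18. A sub-clustering resolution of 0.8 moved 33 state levels and kept 39, and thinning to 500 UMIs moved 38 shares of cells and kept 10. Low counts limit the Hdc-led PBS values, with 16 UMIs of Cybb and 8 of Sod2.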

Other observations

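Cells outside the immune classes also carried these genes. In the class named endothelial (50, 23 and 24 cells), Sod2 was at 95.6 (68.3 to 130.2) CPM in PBS, 272 (222 to 330.5) CPM in 3-day WGP and 239 (193 to 293) CPM in 7-day WGP and Prdx1 at 581 (510.3 to 659) CPM in PBS, 1085 (982 to 1195) CPM in 3-day WGP and 1103 (1001 to 1213) CPM in 7-day WGP. That class was mixed, led by Sst, Cxcl13 and Clu, with mean marker log2 ratios of 4.11 (endothelial) and 3.48 (fibroblast). Clustering after log-normalization, before doublets were removed, gave 48, 7 and 10 endothelial-like cells. A fibroblast-like cluster led by Sst and Cxcl13 held 23, 23 and 26. Xist and Y cells of the class were 35 and 7, 4 and 15, and 7 and 13. Its values can therefore carry a change in make-up or sex, which was not tested. In fibroblasts (21, 27 and 9), Sod2 was at 29.2, 117 and 549 CPM, from 9, 57 and 110 UMIs. A macrophage sub-cluster without a name, led by Tppp3, Ltb4r1 and Gbp2b, held 2, 41 and 126 cells. It had 3147 (3002 to 3296) CPM of Prdx5 at 3 days and 2544 (2463 to 2628) CPM at 7 days, and 303 (259.7 to 352) and 314 (286 to 345) CPM of Sod2. These cells came through a CD45+ sort, and free RNA and doublets as their source were not tested.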
